A study of Mus musculus with 4 samples.

Results

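The enzymes of glycolysis and of the citric acid cycle, 35 genes, were examined in RNA that came down with the RNA-binding protein Cpeb4 from the mouse ventricular-subventricular zone (V-SVZ). The members were taken by gene symbol: 16 glycolytic enzymes from hexokinase to lactate dehydrogenase, and 19 genes of pyruvate entry and the citric acid cycle, out of 53379 rows of the deposited table. The second group, as counted and summed below, includes Idh1 and Mdh1, cytosolic isozymes that are not enzymes of the cycle itself. The 35 symbols stand on 36 rows, because Aldoa appears 2 times. The V-SVZ, a neurogenic tissue beside the lateral ventricles, was taken from CD1 mice of wild type, aged 7 or 8 postnatal days, and lysed. Each of 2 experiments gave 1 library of RNA recovered with an anti-Cpeb4 antibody and 1 recovered with a control IgG antibody, so each antibody has 2 libraries. All 4 libraries hold immunoprecipitated RNA, and no library of input RNA enters the comparison. Whether the experiments used separate or pooled animals is not in the labels, and the p-values below therefore reflect only how much these libraries vary, which may be technical. The fold changes compare recovery with 2 antibodies and are not changes of tissue expression. The lysates were of whole tissue, so which cells a recovered mRNA came from cannot be told. For a low level, fewer cells of a type and less RNA per cell cannot be told apart.

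Glycolysis splits glucose into pyruvate in the cytosol with a small yield of ATP, and lactate dehydrogenase turns pyruvate into lactate. The mitochondrial pyruvate dehydrogenase complex turns pyruvate into acetyl-CoA, which the citric acid cycle oxidises to feed the respiratory chain. Immature neural cells are known for high aerobic glycolysis, and neuronal differentiation for a shift towards mitochondrial oxidation. Cpeb4 belongs to a family of proteins that bind U-rich elements in the 3′ ends of mRNAs and regulate poly(A) tail length and translation. An mRNA's level in a precipitate measures recovery of that mRNA, not the amount or activity of the enzyme.

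Values are FPKM, a level per length of gene that the authors scaled between libraries, and the libraries held 22486721 to 35037171 reads on genes. The deposited scale factor over total reads was 0.869 and 0.804 for the Cpeb4 libraries and 1.195 and 1.197 for IgG. The deposited values thus stand higher in Cpeb4 against IgG than values scaled to total reads would. Every member passed the filter of at least 1 FPKM in at least 2 libraries, and Hk2, at 117 to 172 reads per library, was the only one under 667 reads in any library. The Cpeb4 mRNA itself stood at 26.7 and 38.3 FPKM with the Cpeb4 antibody in experiments 1 and 2 and at 9.04 and 9.66 FPKM with IgG (log2 fold change 1.67, SE 0.13, limma adjusted p = 9.59e-08). Marker genes of the V-SVZ's cell types were detected, and none was at 0 in all libraries. A call is an adjusted p under 0.05 in limma, a linear model with the spread shared over genes, on log2(FPKM + 1) with the experiment as a block. Over all tested genes 38.8% were called higher and 11.6% lower. Of 10 neuroblast markers 7 were higher in Cpeb4 immunoprecipitates and 0 lower, with a summed level of 712 to 720 FPKM against 453 to 459 in IgG. Of 10 neural stem cell and astrocyte markers 7 were higher and 1 lower (1365 to 1484 against 795 to 834 FPKM), and of 8 oligodendrocyte lineage markers 7 were higher and 0 lower (590 to 638 against 397 to 420 FPKM). Among choroid plexus and blood markers, 5 of 6 were tested, and 3 were lower and 0 higher (204 to 229 against 264 to 290 FPKM, summed over all 6). Ependymal markers likewise had 5 of 6 tested, 3 lower and 0 higher (64.7 to 74.9 against 86.7 to 88.6 FPKM, summed over all 6). Of 6 endothelial and mural markers 1 was higher and 2 lower (82.3 to 82.7 against 68 to 69 FPKM), and of 6 microglia markers 1 was higher and 2 lower (136 in both against 112 to 120 FPKM). With libraries scaled to total reads these counts became 4 higher and 2 lower for neuroblasts, 4 and 3 for stem cells and astrocytes, 0 and 0 for the oligodendrocyte lineage, 0 and 4 for choroid plexus and blood, 0 and 5 for ependyma, 1 and 4 for endothelium and mural cells and 1 and 5 for microglia, beside 17.5% and 42.4% of all genes. The part of these cell types in the results below was not tested.

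Calls were counted for each pathway and set beside those of all genes. Of the 16 glycolytic enzymes, 1 was called higher, 0 lower and 15 were not called, with a median log2 fold change of -0.01. Of the 19 genes of pyruvate entry and the citric acid cycle, 12 were called higher, 2 lower and 5 were not called, with a median of 0.37. Over all 15745 genes tested, 38.8% were called higher and 11.6% lower, and the median was 0.19. The fold change rose with level, and a stricter filter of 5 FPKM kept 10100 genes. Of those, 51.3% were called higher and 9.28% lower, with a median of 0.31. Under that filter 1 of 15 glycolytic genes was higher and 0 lower (median 0.01). The other pathway had 13 of 19 higher and 2 lower (median 0.37). The glycolytic fold changes lay between -0.22 and 0.36 and those of the other pathway between -0.42 and 1.86. Members called at least 2-fold higher numbered 6, all of pyruvate entry and the citric acid cycle: Idh3a, Dld, Pdha1, Cs, Dlat and Sucla2. Of all tested genes 10.8% were called at least 2-fold higher. With libraries scaled to total reads 1 member, Idh3a, was at least 2-fold higher (2.97% of all genes), with Dld at log2 0.99, Pdha1 at 0.81, Cs and Dlat at 0.54 and Sucla2 at 0.53. The upper quartile left 2 such members (3.62%), the trimmed mean of M-values 3 (5.80%) and median centring 2 (4.97%). With the deposited scaling, both experiments gave the same sign for all 19 genes of pyruvate entry and the citric acid cycle and for 9 of the 16 glycolytic genes. The same share over all tested genes is not given here, so this does not set the pathway apart. With total reads as the scaling, the fold changes of Pdhb, Idh2, Ogdh, Dlst, Suclg1, Mdh1 and Mdh2 turned negative. No test of 1 pathway against the other was made, because its members had been chosen with results of these data known.

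**Figure D1:**
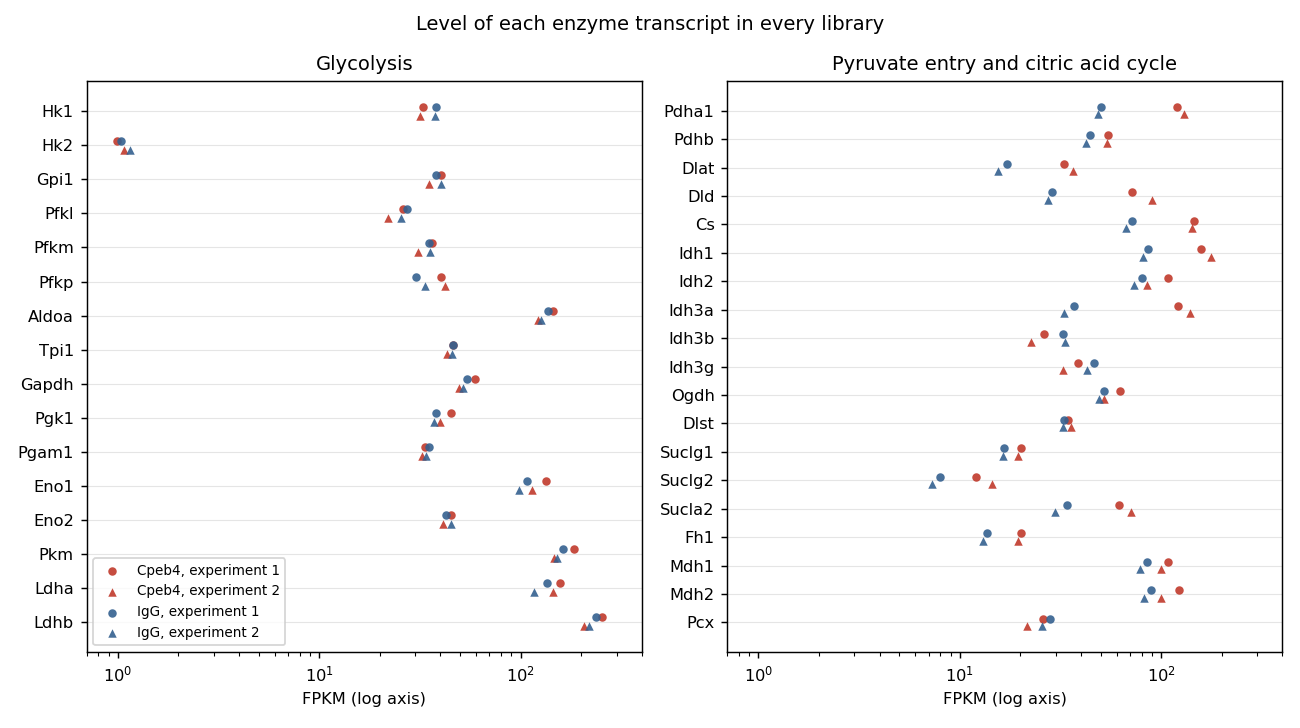
FPKM (log axis) of each of the 35 enzymes in every library, glycolysis on the left and pyruvate entry with the citric acid cycle on the right. Red marks stand for Cpeb4, blue for IgG, circles for experiment 1 and triangles for experiment 2. Red and blue marks lie together for most glycolytic genes, while Idh3a sits at 121 and 139 FPKM in Cpeb4 against 37 and 33.1 in IgG.

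**Figure D2:**
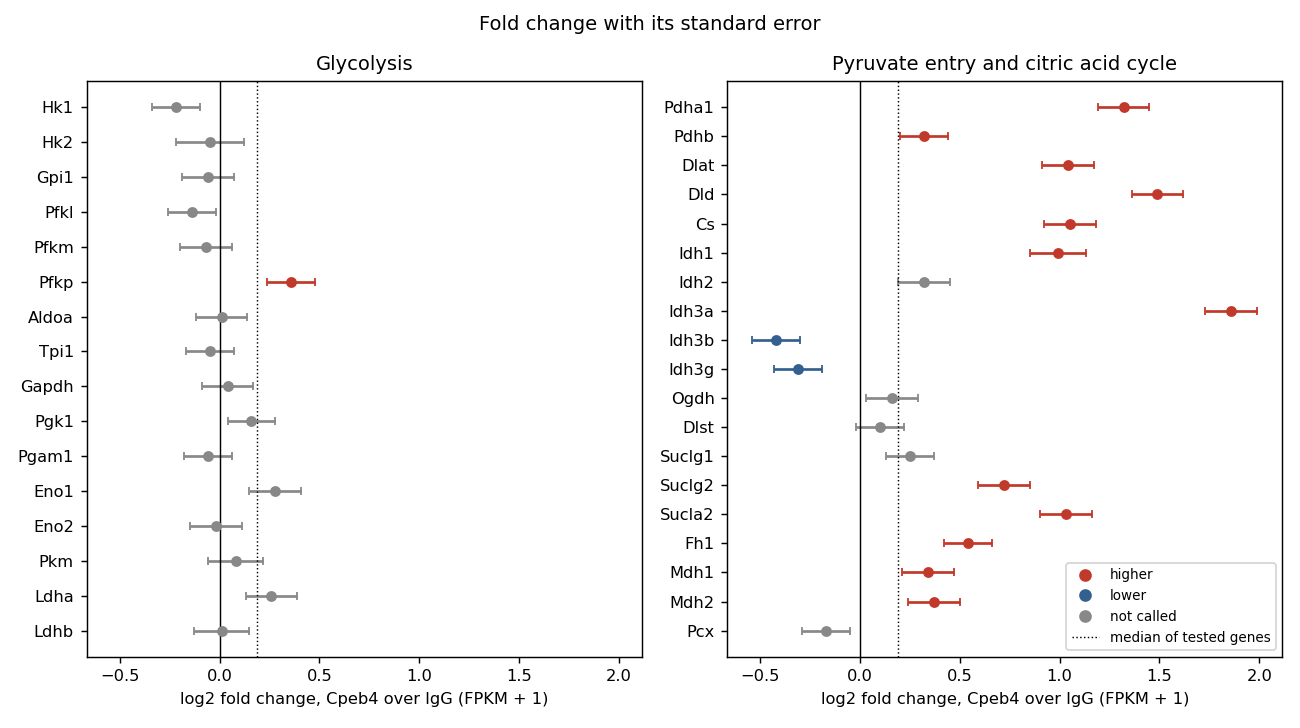
log2 fold change of Cpeb4 over IgG on the FPKM + 1 scale for each enzyme, with its standard error as a bar (2 libraries per antibody). Red marks were called higher, blue lower and grey not called. The solid line is 0 and the dotted line the median of all tested genes, 0.19; of the glycolytic enzymes only Pfkp is red.

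The levels were also summed, without a test. The 16 glycolytic genes summed to 1281 and 1102 FPKM in the Cpeb4 libraries of experiments 1 and 2 and to 1164 and 1097 FPKM with IgG. The 19 genes of pyruvate entry and the citric acid cycle, with the cytosolic Idh1 and Mdh1 among them, summed to 1344 and 1341 FPKM in Cpeb4 and to 853 and 798 FPKM in IgG. Within each library, the second sum was 1.05 and 1.22 times the first in Cpeb4 and 0.732 and 0.728 times in IgG. This ratio does not depend on how libraries are scaled against each other.

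Many single calls changed with how the libraries were scaled. With libraries scaled to their total reads, 0 glycolytic genes were higher and 12 lower, and 7 genes of the other pathway were higher and 5 lower, beside 17.5% higher and 42.4% lower over all genes. With the upper quartile, the counts were 0 and 11 for glycolysis and 7 and 4 for the other pathway (19.6% and 37.0% over all genes). With the trimmed mean of M-values, they were 0 and 6 and then 8 and 3 (25.6% higher and 25.6% lower over all genes). With libraries centred on the median of tested genes, they were 0 and 8 and then 8 and 3 (23.6% and 29.9%). The median log2 fold change of all tested genes was -0.24, -0.18, -0.04 and -0.09 under these 4 scalings. The glycolytic medians were -0.50, -0.43, -0.27 and -0.32 and those of the other pathway -0.14, -0.08, 0.09 and 0.03. Under each scaling glycolysis lay below the median of all genes and the other pathway above it. A scaling moves all genes of a library nearly alike, so this repeat is no further support. Genes of all levels enter that median. With the filter of 5 FPKM, the deposited scaling gave 0.37 for the other pathway and 0.31 for all genes. With a trend on length and level removed, both were 0.15. Under each of the 5 scalings 7 members were called higher, Idh3a, Dld, Pdha1, Cs, Dlat, Sucla2 and the cytosolic Idh1, and 2 were called lower, Idh3b and Idh3g. None of them was glycolytic. Over all tested genes 17.5% were higher and 11.6% lower under each of the 5. The 4 alternatives all move Cpeb4 down against IgG. All 1822 genes lower with the deposited scaling were therefore lower under each of the 5, which adds no support to the falls of Idh3b and Idh3g. The genes higher under each of the 5, 2748, were nearly the 2759 higher with total reads alone.

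**Figure D3:**
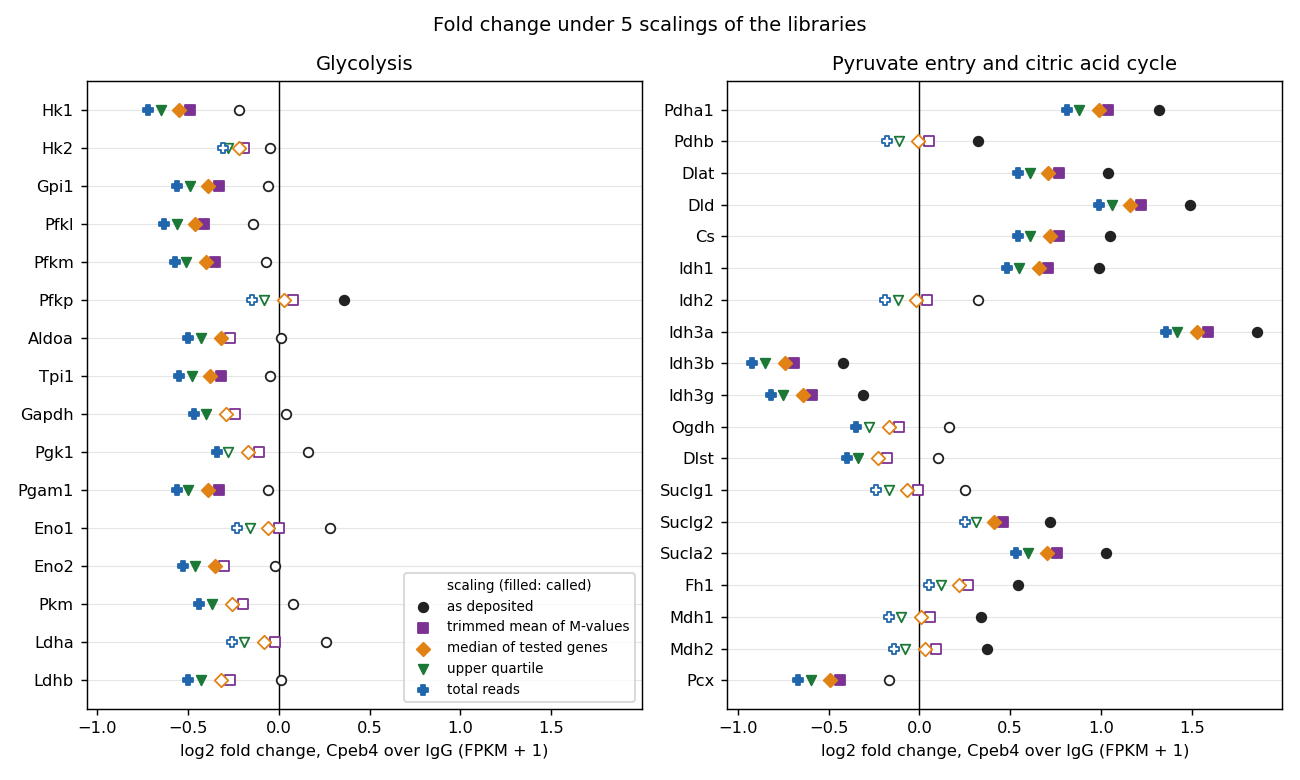
log2 fold change of Cpeb4 over IgG for each enzyme under the deposited scaling and 4 others, with filled marks for calls. The points of the other scalings lie to the left of the deposited one; the 7 genes that stay filled on the right of 0 are Idh3a, Dld, Pdha1, Cs, Dlat, Sucla2 and Idh1.

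Single libraries also bore on the counts. Without Cpeb4 replicate 2, 5 glycolytic genes were called higher (Pfkp, Pgk1, Eno1, Pkm and Ldha), 15 genes of the other pathway higher and 1 lower, beside 41.4% higher and 11.9% lower of all genes. Without Cpeb4 replicate 1, the counts were 1 higher and 2 lower for glycolysis and 11 higher and 3 lower for the other pathway (41.5% and 15.9% of all genes). Without IgG replicate 1 or 2, 0 glycolytic genes were called, and 9 or 8 genes of the other pathway were higher and 0 lower, beside 26.5% or 25.3% higher and 5.98% or 5.51% lower of all genes. In the authors' deposited table, 0 of the glycolytic genes were called at an adjusted p under 0.05, and 9 genes of the other pathway were higher and 1, Idh3b, lower, beside 21.7% higher and 4.93% lower of its genes.

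With the deposited scaling, the first steps of glycolysis did not pass the test in either direction. Hk1, the main hexokinase of brain, which traps glucose in the cell as glucose 6-phosphate, was at 32.8 and 31.7 FPKM in the Cpeb4 libraries of experiments 1 and 2 and at 38 and 37.5 FPKM in IgG (log2 fold change -0.22, SE 0.12, limma adjusted p = 0.146). Both Cpeb4 libraries lay below both IgG libraries, and with any of the 4 alternative scalings Hk1 was called lower. Hk2, the hexokinase of growing and tumour cells, was near the detection filter at 0.987 and 1.07 against 1.04 and 1.15 FPKM. Gpi1, which isomerises the product to fructose 6-phosphate, was at 40.2 and 34.9 against 37.9 and 40.2 FPKM, with overlapping libraries. Like Hk1, Gpi1 was called lower with any of the 4 alternative scalings.

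The phosphofructokinase isozymes, which commit sugar to glycolysis, held the only glycolytic call with the deposited scaling. Pfkp, the platelet isozyme, was at 40.1 and 42.2 FPKM in Cpeb4 and 30.3 and 33.7 FPKM in IgG (log2 0.36, SE 0.12, limma adjusted p = 0.0234). That call was lost under each other scaling (log2 fold change -0.15 to 0.08), without IgG replicate 1 or 2, and in the authors' deposited table (adjusted p = 0.0519). Pfkl, the liver isozyme, was at 26.1 and 21.9 against 27.2 and 25.4 FPKM, and Pfkm, the muscle isozyme, at 36.4 and 31 against 35.2 and 35.5 FPKM. Pfkl and Pfkm were each called lower with any of the 4 alternative scalings. Within a library, the ratio of Pfkp to Pfkl was 1.54 and 1.93 in Cpeb4 and 1.11 and 1.32 in IgG, while that of Pfkm to Pfkl overlapped (1.39 and 1.42 against 1.29 and 1.39).

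No enzyme of the middle of the pathway was called with the deposited scaling. Aldoa, the aldolase that splits the 6-carbon sugar, was at 144 and 122 FPKM in Cpeb4 and 137 and 126 FPKM in IgG (log2 fold change 0.01, SE 0.13). A second row with the symbol Aldoa was at 1.83 and 1.77 against 1.72 and 1.98 FPKM. Tpi1, which interconverts the triose phosphates, was at 46.3 and 43 against 46.4 and 45.8 FPKM. Tpi1 was called lower with any of the 4 alternative scalings, and Aldoa with 3 of them. Gapdh, the NAD-dependent dehydrogenase often used as a reference gene, was at 59.4 and 49.7 against 53.9 and 51.9 FPKM (log2 0.04, SE 0.13, limma adjusted p = 0.825). Gapdh was called lower with total reads (-0.47) and with the upper quartile (-0.40) as the scaling, so that no direction can be given for it.

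The last steps of the pathway included the members with the highest levels per length. Pgk1, which makes the first ATP of the payoff phase, was at 44.9 and 39.8 FPKM in Cpeb4 and 38.1 and 37.3 in IgG, and the mutase Pgam1 at 33.6 and 32.3 against 35 and 33.8 FPKM. Eno1, the widely expressed enolase, was at 134 and 114 against 107 and 97.7 FPKM (log2 fold change 0.28, SE 0.13, limma adjusted p = 0.0917). Both Cpeb4 libraries lay above both IgG libraries for Eno1, while those of the neuronal enolase Eno2 overlapped at 45.3 and 41 against 42.4 and 45.2 FPKM. Pkm, pyruvate kinase, was at 185 and 147 against 162 and 151 FPKM. Ldhb, the lactate dehydrogenase subunit that favours pyruvate formation, was the most abundant member at 254 and 207 against 238 and 218 FPKM, and Ldha, the subunit that favours lactate, was at 156 and 144 against 135 and 116 FPKM (log2 fold change 0.26, SE 0.13, limma adjusted p = 0.126). Of the 4 alternative scalings, Pgam1 was called lower with all, Eno2 with 3, Pkm and Ldhb with 2 each and Pgk1 with 1. Several of the glycolytic genes have processed pseudogenes: the table lists 10 entries named as pseudogenes or related sequences of 5 glycolytic genes (Aldoa, Gapdh, Pgk1, Pgam1 and Ldha), at 0.907 FPKM or less, and none by that naming for the other pathway. How reads shared with such copies were counted is not given in the sources used here, so the levels of these 5 genes are uncertain.

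The pyruvate dehydrogenase complex joins an E1 enzyme of alpha and beta subunits, an E2 acetyltransferase core, an E3 dehydrogenase and an E3-binding protein. Pdha1 (chromosome X: 160122219 to 160138430, GRCm38), the E1 alpha subunit through which the complex is switched by phosphorylation, was at 120 and 130 FPKM in Cpeb4 and 50.3 and 48.6 in IgG (2.49-fold, with folds here and below taken after adding 1 FPKM, log2 1.32, SE 0.13, limma adjusted p = 5.66e-07). Dlat, the E2 core, was at 32.9 and 36.4 against 17.2 and 15.5 FPKM (log2 1.04, SE 0.13, limma adjusted p = 4.7e-06). Dld, the E3 enzyme shared with the 2-oxoglutarate dehydrogenase complex, was at 71.9 and 90.3 against 28.6 and 27.3 FPKM and lies on chromosome 12 from 31331562 to 31351471 (log2 1.49, SE 0.13, limma adjusted p = 2.45e-07). For each of these 3 genes, both Cpeb4 libraries lay above both IgG libraries, and experiment 2 gave the larger difference.

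Pdhb, the E1 beta subunit, was at 54.7 and 54.1 FPKM in Cpeb4 and 44.3 and 42.1 in IgG (log2 fold change 0.32, SE 0.12, limma adjusted p = 0.0384). Under the 4 alternative scalings Pdhb was at log2 -0.18 to 0.05 and the call was lost, as it was without IgG replicate 1 or 2 and in the authors' deposited table (adjusted p = 0.112). Within a library, the ratio of Pdha1 to Pdhb was 2.19 and 2.4 in Cpeb4 and 1.13 and 1.15 in IgG, a ratio of recovered mRNA and not of protein subunits. The ratio of Dlat to Pdhb was 0.601 and 0.673 against 0.387 and 0.369. Pdhx, the E3-binding protein, which is not among the 35, was at 30.3 and 34.7 against 23.9 and 22.5 FPKM (log2 0.47, SE 0.13, limma adjusted p = 0.00573) and was called under the deposited scaling but under none of the other 4, and not without IgG replicate 1 or 2. Pcx, pyruvate carboxylase, which refills the cycle with oxaloacetate and is an astrocyte enzyme in brain, was at 26 and 21.6 against 28 and 25.6 FPKM and was not called (log2 -0.17, SE 0.12, limma adjusted p = 0.263), though with any of the 4 alternative scalings it was called lower.

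Cs, citrate synthase, which joins acetyl-CoA to oxaloacetate, was at 146 and 142 FPKM in Cpeb4 and 71.4 and 66.6 in IgG (2.07-fold, log2 1.05, SE 0.13, limma adjusted p = 5.73e-06).

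With the deposited scaling, the isocitrate dehydrogenases held the largest rise and the 2 members called lower among the 35. The NAD-dependent enzyme of the cycle, IDH3, is a heteromer of a catalytic alpha subunit with beta and gamma subunits. Idh3a (chromosome 9: 54586511 to 54604662), the alpha subunit, was at 121 and 139 FPKM in Cpeb4 and 37 and 33.1 FPKM in IgG, 3.64-fold higher (log2 1.86, SE 0.13, limma adjusted p = 5.67e-08). Idh3b (chromosome 2: 130279309 to 130284451), the beta subunit, was lower at 26.2 and 22.6 against 32.6 and 33.2 FPKM (log2 -0.42, SE 0.12, limma adjusted p = 0.0103). Idh3g (chromosome X: 73778963 to 73786897), the gamma subunit, was lower at 38.6 and 32.7 against 46.2 and 42.6 FPKM (log2 -0.31, SE 0.12, limma adjusted p = 0.0445). The libraries of the 2 antibodies did not overlap for any of the 3 subunits. Such a lack of overlap was seen for 17 of the 19 genes of pyruvate entry and the citric acid cycle and for 6 of the 16 glycolytic genes. The share over all tested genes is not given here, so it does not set IDH3 apart.

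Within each library, the IDH3 subunits therefore stood in different proportions. The ratio of Idh3a to Idh3b FPKM was 4.63 and 6.15 in Cpeb4 and 1.13 and 0.997 in IgG, and that of Idh3a to Idh3g was 3.14 and 4.26 against 0.8 and 0.777. The ratio of Idh3g to Idh3b was 1.47 and 1.44 against 1.42 and 1.28. With 2 libraries against 2, an exact two-sided permutation test of such a ratio cannot go below p = 0.33, so none is given. The falls were the less certain calls: that of Idh3g was lost with no replicate block (limma adjusted p = 0.0604), with a pseudocount of 0.1 (limma adjusted p = 0.0511), without Cpeb4 replicate 2 and in the authors' deposited table (adjusted p = 0.121), and both were lost without IgG replicate 1 or 2 and with no filter on low values. The rise of Idh3a was called under every alternative run.

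**Figure D4:**
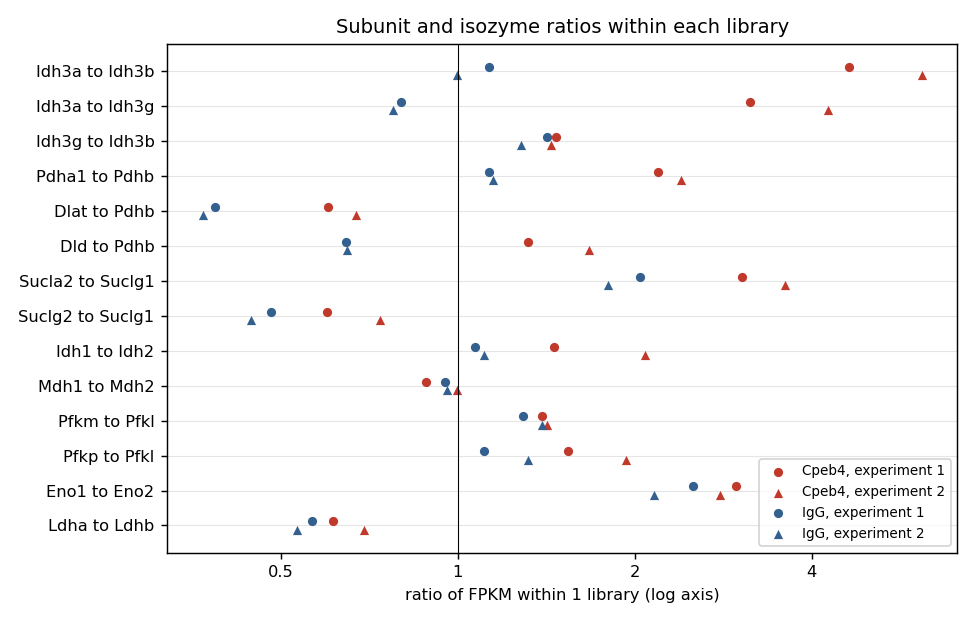
Ratio of the FPKM of paired subunits or isozymes within each library (log axis), with red for Cpeb4, blue for IgG, circles for experiment 1 and triangles for experiment 2. The ratio of Idh3a to Idh3b lies at 4.63 and 6.15 in Cpeb4 against 1.13 and 0.997 in IgG, while Mdh1 to Mdh2 overlaps.

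The NADP-dependent isozymes, which supply reducing power, went with Idh3a in part. Idh1, in the cytosol, was at 158 and 177 FPKM in Cpeb4 and 85.9 and 81.1 in IgG (1.99-fold, log2 0.99, SE 0.14, limma adjusted p = 1.58e-05), with no overlap. Idh2, in mitochondria, was at 108 and 84.8 against 80.1 and 73.2 FPKM and missed the threshold (log2 0.32, SE 0.13, limma adjusted p = 0.0549). The Idh2 library of experiment 1 was the higher of the Cpeb4 pair, and that of Idh1 the lower. Within a library, the ratio of Idh1 to Idh2 was 1.46 and 2.08 in Cpeb4 and 1.07 and 1.11 in IgG.

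The 2-oxoglutarate dehydrogenase complex, built like pyruvate dehydrogenase, was not called with the deposited scaling apart from its shared Dld. Ogdh, its E1 enzyme, was at 62.4 and 51.8 FPKM in Cpeb4 and 52.3 and 49.3 in IgG, with overlapping libraries (log2 0.16, SE 0.13, limma adjusted p = 0.306). Dlst, its E2 core, was at 34.6 and 35.5 against 32.9 and 32.5 FPKM (log2 0.10, SE 0.12, limma adjusted p = 0.536). With total reads as the scaling Ogdh (log2 -0.35) and Dlst (-0.40) were called lower, and Dlst also with the upper quartile (-0.34). The ratio of the E2 genes, Dlat to Dlst, was 0.95 and 1.03 in Cpeb4 and 0.521 and 0.479 in IgG.

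Succinyl-CoA ligase pairs a common alpha subunit with a beta subunit that sets whether ATP or GTP is made. Sucla2, the ATP-specific beta subunit, was at 61.4 and 70.5 FPKM in Cpeb4 and 33.9 and 29.6 in IgG (2.04-fold, log2 1.03, SE 0.13, limma adjusted p = 8.43e-06). Suclg2, the GTP-specific beta subunit, was at 12.1 and 14.4 against 8.02 and 7.3 FPKM (log2 0.72, SE 0.13, limma adjusted p = 2.61e-04), a call lost with total reads (limma adjusted p = 0.119) and with the upper quartile (limma adjusted p = 0.0547). Suclg1, the common alpha subunit, was at 20.2 and 19.5 against 16.6 and 16.4 FPKM and was not called (log2 0.25, SE 0.12, limma adjusted p = 0.095). Both beta subunits thus stood higher relative to the alpha subunit in the Cpeb4 libraries: Sucla2 to Suclg1 was 3.04 and 3.61 against 2.04 and 1.8, and Suclg2 to Suclg1 was 0.599 and 0.739 against 0.482 and 0.445.

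The last steps of the cycle showed smaller differences. Succinate dehydrogenase, which is also complex II of the respiratory chain, was not called in any subunit with the deposited scaling. The log2 fold changes were 0.07, 0.06, 0.16 and 0.18 for Sdha, Sdhb, Sdhc and Sdhd, and all were called lower with total reads as the scaling. Fh1, fumarase, was at 20.2 and 19.5 FPKM in Cpeb4 and 13.6 and 13.1 in IgG (log2 0.54, SE 0.12, limma adjusted p = 0.00156), a call lost under each of the other 4 scalings and without IgG replicate 2. Mdh2, the malate dehydrogenase of the cycle, was at 122 and 99.8 against 88.9 and 82.2 FPKM (log2 0.37, SE 0.13, limma adjusted p = 0.0289). Mdh1, its cytosolic partner in the malate-aspartate shuttle, was at 108 and 99.5 against 84.6 and 78.9 FPKM (log2 0.34, SE 0.13, limma adjusted p = 0.0371). The calls of Mdh1 and Mdh2 were both lost under each of the other 4 scalings, without IgG replicate 1 or 2, and in the authors' deposited table (adjusted p = 0.0782 and 0.0632). That of Mdh2 was also lost without Cpeb4 replicate 1 (limma adjusted p = 0.0537).

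Genes around the 2 pathways were read from 3 lists. Of 28 transporters and regulators of both pathways, 27 were tested, and 14 were higher, 1 lower and 12 not called, with a median log2 fold change of 0.35, beside 38.8% higher and 11.6% lower of all genes. With total reads as the scaling 10 were higher and 9 lower (median -0.10), beside 17.5% and 42.4% of all genes. With the upper quartile the counts were 11 and 8 (median -0.05), beside 19.6% and 37.0%. On the FPKM + 1 scale, the 3 largest rises were of Mpc1, Pdp1 and Pdk1. Mpc1, a subunit of the mitochondrial pyruvate carrier, was at 169 and 190 FPKM in Cpeb4 and 50.8 and 42.2 in IgG (3.82-fold, log2 1.93, SE 0.14, limma adjusted p = 5.67e-08). Pdp1, the phosphatase that activates pyruvate dehydrogenase, was at 39.4 and 50.2 against 19.3 and 17.1 FPKM (log2 1.25, SE 0.14). Pdk1, a kinase that inactivates it, was at 23.6 and 26.3 against 10.3 and 10 FPKM (log2 1.21, SE 0.12). The limma adjusted p was 1.81e-06 for Pdp1 and 8.22e-07 for Pdk1, and all 3 genes were higher under each of the 5 scalings. Slc16a7, a monocarboxylate transporter named after its values were seen, was at 2.95 and 4.57 against 1.2 and 1.36 FPKM (log2 1.04, SE 0.16, limma adjusted p = 4.51e-05). With a pseudocount of 0.1 FPKM, Slc16a7 came second after Mpc1 at log2 1.45, above Pdp1 at 1.29 and Pdk1 at 1.28. The 1 lower gene, the hexose transporter Slc2a6, was at 2.79 and 2.19 against 3.68 and 3.48 FPKM (log2 -0.40, SE 0.14, limma adjusted p = 0.0303), a call lost without Cpeb4 replicate 2, without IgG replicate 1 or 2, with no filter on low values and in the authors' deposited table (adjusted p = 0.155).

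**Figure D5:**
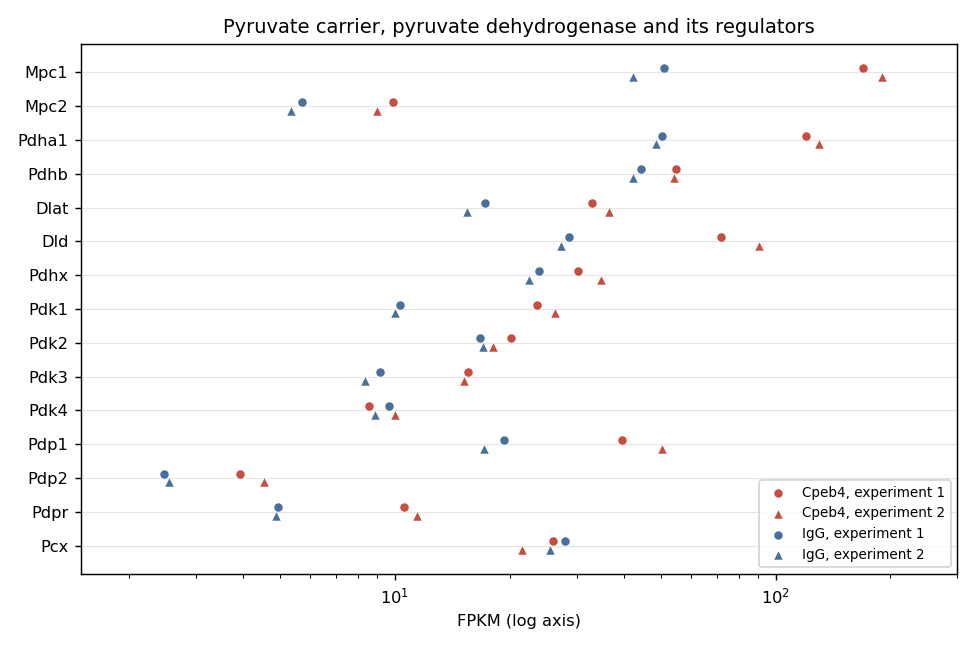
FPKM (log axis) in every library of the mitochondrial pyruvate carrier (Mpc1, Mpc2), the pyruvate dehydrogenase subunits, their kinases (Pdk1 to Pdk4) and phosphatases (Pdp1, Pdp2, with the regulatory subunit Pdpr), and Pcx. Red marks are Cpeb4, blue marks IgG. Mpc1 lies at 169 and 190 FPKM in Cpeb4 against 50.8 and 42.2 in IgG, and the marks of Pdk4 overlap.

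Of 36 further enzymes of the pathways and their side branches, 24 were tested, and 8 were higher, 0 lower and 16 not called, with a median log2 fold change of 0.15. That share higher, 33.3%, was below the 38.8% of all genes. With total reads as the scaling 2 were higher and 14 lower (median -0.34), beside 17.5% and 42.4% of all genes. With the upper quartile the counts were 3 and 9, beside 19.6% and 37.0%. Gpd2, the mitochondrial enzyme of the glycerol phosphate shuttle, was at 35.3 and 34.2 FPKM in Cpeb4 and 15.4 and 14.7 in IgG (log2 1.15, SE 0.12, limma adjusted p = 1.1e-06). Me1, the cytosolic malic enzyme, was at 62.8 and 73.1 against 31.4 and 28.9 FPKM (log2 1.14, SE 0.13, limma adjusted p = 2.46e-06), and Glud1, glutamate dehydrogenase, at 157 and 165 against 94.5 and 88.3 FPKM (log2 0.81, SE 0.13, limma adjusted p = 1.02e-04). The Glud1 call was lost with total reads as the scaling (limma adjusted p = 0.0756). Aldoc, the brain aldolase, resembled Aldoa at 144 and 125 against 131 and 117 FPKM (log2 0.11, SE 0.13, limma adjusted p = 0.504). Of 11 pentose phosphate genes, 10 were tested, and 2 were higher and 0 lower (20% and 0%, against 38.8% and 11.6% of all genes). With total reads 1 was higher and 7 lower (17.5% and 42.4% of all genes), and with the upper quartile 2 and 5 (19.6% and 37.0%). Rpe, the ribulose phosphate epimerase, was at 40.5 and 53.9 against 9.76 and 8.31 FPKM (4.77-fold, log2 2.25, SE 0.14, limma adjusted p = 4.4e-08), and Prps2, which makes phosphoribosyl pyrophosphate, at 10.3 and 12.1 against 6.67 and 5.7 FPKM (log2 0.77, SE 0.13, limma adjusted p = 1.85e-04). The Prps2 call was lost with total reads (limma adjusted p = 0.0532).

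Gene length and level moved with the fold change over all genes, and the members were set beside them. Across 15633 tested genes with a length implied by the FPKM, the fold change had a Spearman correlation of 0.301 with length and 0.335 with mean FPKM. Genes are not independent replicates, and length also enters FPKM. Across the 35 members the correlations were -0.0297 and 0.331. The median implied length was 2634 bases for glycolysis and 2600 for the other pathway, against 3078 for all tested genes, and the median of the mean FPKM was 41.8 and 48.9 against 8.05. Of the pyruvate entry and citric acid cycle genes, the 12 called higher had a median length of 2582 bases and a median level of 68.6 FPKM. These medians were 3245 bases and 33.9 FPKM for the 5 not called, and 2081 bases and 34.3 FPKM for the 2 called lower. With a smooth trend on length and level removed, 0 glycolytic genes were higher and 6 lower, and 9 genes of the other pathway were higher and 4 lower, beside 35.5% higher and 13.9% lower of all genes. The median log2 fold change was then -0.20 for glycolysis and 0.15 for the other pathway, the same as the 0.15 of all genes. Idh3a (log2 1.52), Dld (1.20) and Pdha1 (0.93) were still called higher there, and Idh3b (-0.56) and Idh3g (-0.52) lower.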

How the data were processed

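RNA immunoprecipitated with anti-Cpeb4 or control IgG from mouse V-SVZ lysates was sequenced in 4 libraries. Per the labels' protocols, a MAGNA RIP kit, SMART-Seq v4 cDNA, which does not mark strand, and Nextera XT were used, so reads of overlapping genes cannot be told apart. Per the submitters' processing notes, the build was mm10 and the tools included STAR 2.6.0c, HTSeq 0.6.1p2, Trim Galore 0.5.0, FastQC 0.11.5 and DESeq2 1.26.0, without roles.

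Per the file headers, the authors deposited FPKM per library, a mean level (a signal, reads over size factors), and their comparison as log2 fold change with standard error, a test score, a p-value and an adjusted p-value. The table held 0 columns of other samples. Joining FPKM to the mean level made 100% of the values whole numbers of reads to within 0.01. These served for depth, length, scalings and limma-voom; intervals from reads without molecular identifiers would cover counting error only.

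Genes that reached 1 FPKM in 2 or more libraries (15745) were tested on log2(FPKM + 1), which understates changes of low genes, with limma 3.58.1 (R 4.3.3), two-sided, trended prior, experiment as a block (1 residual and 14.6 prior degrees of freedom), with Benjamini-Hochberg adjustment over all genes. The block follows the labels' experiment numbers and the word batch in the deposited table's name; deviations of same-numbered libraries correlated at 0.00238 across genes. Neither replicate pair was 1 library given 2 times (chi-square per degree of freedom 28.7 for Cpeb4, 6.4 for IgG). The code was tested on simulated data. Members, lists and ratios were chosen with earlier results of these data known. All 35 members are named, with Cpeb4, the called genes of each related list with the largest changes (up to 3 each way), and Aldoc, Pdhx and Sdha to Sdhd; 1 further gene is not reported here. With Aldoa the more abundant row was used. Coordinates are RefSeq's for GRCm38, the assembly of mm10, matched by symbol for all 35. Planned count models were not run, because the deposited unit is FPKM.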

Additional observations from a re-analysis of the deposited data

How the results depend on the processing

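Idh3a, Dld, Pdha1, Cs, Dlat, Sucla2 and Idh1 were called higher under every alternative run. With total reads as the scaling, 2759 genes were higher and 6670 lower, glycolysis had 0 and 12 and the other pathway 7 and 5; with the upper quartile 3088 and 5821, 0 and 11, 7 and 4; with the trimmed mean of M-values 4028 and 4024, 0 and 6, 8 and 3; with median centring 3718 and 4715, 0 and 8, 8 and 3. These scalings move the Cpeb4 libraries down against IgG by construction. Values of opposite sign, where either was called, were for total reads Pfkp -0.15, Aldoa -0.50, Gapdh -0.47, Pgk1 -0.34, Pkm -0.44, Ldhb -0.50, Pdhb -0.18, Ogdh -0.35, Dlst -0.40, Mdh1 -0.17, Mdh2 -0.14, Aldoc -0.40, Pdhx -0.03, Sdha -0.44, Sdhb -0.45, Sdhc -0.33 and Sdhd -0.33; for the upper quartile Pfkp -0.08, Aldoa -0.43, Gapdh -0.40, Pkm -0.37, Ldhb -0.43, Pdhb -0.11, Dlst -0.34, Mdh1 -0.10, Mdh2 -0.08, Aldoc -0.33, Sdha -0.37 and Sdhb -0.38; for median centring Aldoa -0.32 and Pdhb -0.01. With no filter on low values, 46911 genes were tested, 3915 were higher and 875 lower, glycolysis had 0 and 0 and the other pathway 9 and 0. With a minimum of 5 FPKM, 10100 genes were tested, 5181 were higher and 937 lower, glycolysis had 1 and 0 and the other pathway 13 and 2. With no replicate block and with a pseudocount of 0.1, 1 citric acid cycle gene, Idh3b, was lower; the block changed no other member's call. By the authors' deposited adjusted p, 1119 genes were lower, 0 glycolytic genes were higher and 1 citric acid cycle gene was lower. With limma-voom and with a minimum of 5 FPKM, Idh2 gained a call. With the trend on length and level removed, chosen after seeing the data, glycolysis had 0 higher and 6 lower and the other pathway 9 and 4. Among the enzymes named here, Pfkp -0.12, Gapdh -0.37, Ogdh -0.31 and Sdha -0.35 changed sign where either value was called. Sign changes of uncalled genes are not listed. Without each library in turn, fitted without the block, 3977 to 6534 genes were higher and 867 to 2497 lower, glycolysis had 0 to 5 higher and 0 to 2 lower, and the other pathway 0 to 3 lower; the lone library is assumed to vary like the complete pair. Where no construction shows it, the cause was not tested. Among the members depth limits Hk2 most, at 117 to 172 reads.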
